A study of Mus musculus with 6 samples.

Results

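The messenger RNA of 7 receptors that guide effector and memory lymphocytes through tissues was followed in splenic CD8+ T cells, namely Cxcr3, Cxcr5, Cxcr6, Ccr2, Ccr9, Cx3cr1 and S1pr5. They were chosen by symbol, and all 7 were found among the 28773 genes listed for each sample. All 7 also passed the filter on low values, so they are 7 of the 12444 genes tested. Of the 7, 6 bind chemokines. S1pr5 binds the lipid sphingosine-1-phosphate, so it is a trafficking receptor but not a chemokine receptor.

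The study asked how 2-deoxy-D-glucose (2DG), a glucose analogue that blocks glycolysis, acts together with microwave ablation (MWA) of a tumour on CD8+ T cells. Both groups had their primary tumour ablated on day 10 and differed in what was injected into the abdomen, at intervals of 2 days, with the first dose on day 10 and the last on day 30. The 3 MWA+PBS samples came from mice given the vehicle PBS, and the 3 MWA+2DG samples from mice given 2DG. CD8+ T cells were isolated from spleens on day 35 with a kit, and poly(A) RNA was sequenced in bulk. The mice were wild-type females, 6 weeks old in the study's methods, where 4T1 mammary tumours in BALB/c mice were the main model. The tumour model behind these 6 libraries was not given in the sources used here, and no sample without ablation was analysed here. Nothing in the labels says whether the 3 samples of a group came from separate animals, so p-values measure only the spread between these samples, which may be technical.

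Chemokine receptors are G protein-coupled receptors that steer cells up a gradient of a secreted chemokine and tighten integrins on vessel walls. Resting T cells circulate through lymphoid organs with Ccr7 and S1pr1, and cells that have met antigen gain receptors for inflamed tissue such as Cxcr3 and Cxcr6. Splenic CD8+ T cell isolates hold a mixture of naive, memory and effector cells, so in bulk RNA a receptor's level reflects all of them. Fewer cells of a type and less RNA per cell cannot be told apart in such samples.

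The stretch just upstream of a gene's start is where its core promoter lies, so it is shown for the receptors whose transcripts were higher in MWA+2DG. The table of RefSeq promoters used here matched 6 of the 7 receptors, all but Cxcr5. The 250 bases before the start are printed 5′ to 3′ on the gene's strand, from build GRCm38.p6. Cxcr3 lies at chrX:101734148-101734397 on the minus strand, Cxcr6 at chr9:123806227-123806476 on the plus strand, and S1pr5 at chr9:21248444-21248693 on the minus strand. Capitals mark matches, on either strand, to the letters searched for T-box (TCACACC), RUNX (TGTGGT), STAT GAS (TTCNNNGAA) and ETS (GGAAGT) motifs.
Cxcr3: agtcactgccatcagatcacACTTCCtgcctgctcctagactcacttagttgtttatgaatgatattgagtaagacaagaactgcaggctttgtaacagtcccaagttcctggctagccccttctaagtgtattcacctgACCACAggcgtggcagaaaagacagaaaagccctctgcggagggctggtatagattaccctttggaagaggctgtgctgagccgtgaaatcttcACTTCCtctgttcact
Cxcr6: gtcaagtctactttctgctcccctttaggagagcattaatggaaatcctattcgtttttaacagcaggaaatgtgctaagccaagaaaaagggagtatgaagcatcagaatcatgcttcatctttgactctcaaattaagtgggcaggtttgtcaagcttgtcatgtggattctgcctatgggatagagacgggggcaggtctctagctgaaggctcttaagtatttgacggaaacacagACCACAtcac
S1pr5: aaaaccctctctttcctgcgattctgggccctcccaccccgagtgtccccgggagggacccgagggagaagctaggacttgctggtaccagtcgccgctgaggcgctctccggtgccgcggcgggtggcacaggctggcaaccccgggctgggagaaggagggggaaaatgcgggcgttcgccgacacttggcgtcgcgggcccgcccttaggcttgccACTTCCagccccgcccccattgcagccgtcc
The Cxcr3 stretch held 1 RUNX match that began 110 bases before the start, and 2 ETS matches at 230 and 16 bases. The Cxcr6 stretch held 1 RUNX match at 10 bases, and the S1pr5 stretch 1 ETS match at 31 bases. Of the stretches not printed, that of Cx3cr1 held 1 RUNX match at 54 bases, and those of Ccr2 and Ccr9 held no match to any of the 4 motifs. No T-box or STAT GAS match was in any of the 6 stretches. Among 32851 mouse promoter stretches of the same length, 14.05% held the RUNX letters, 19.74% the ETS letters, 3.33% the T-box letters and 7.02% the STAT GAS letters. These matches are letters in a window and were not measured as binding sites.

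Depth per sample is unknown, since the files hold FPKM (fragments scaled to transcript length and to the mapped total of the library) and no counts. FPKM totals were between 291803 and 313257, and between 22414 and 23340 genes were above 0 in a sample. Mitochondrial genes held 21.4% to 22.8% of the FPKM total in the MWA+PBS samples and 19.4% to 20.7% in the MWA+2DG samples, without overlap. With FPKM rescaled after these and the ribosomal protein, haemoglobin and immunoglobulin genes were removed, each of the 7 receptors kept its direction and its side of the threshold. Pearson's r of log2(FPKM + 1) was taken across genes, which are no independent replicates, and was between 0.984 and 0.989 within groups and between 0.934 and 0.943 across groups. The defining T cell markers Cd3e, Cd8a and Cd8b1 were high in every sample, with Cd8a at 226 to 239 FPKM in the MWA+PBS samples and 359 to 377 FPKM in the MWA+2DG samples. No batch was labelled, so treatment and any batch running alongside it cannot be told apart.

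Of the 7 receptors, 4 were higher in MWA+2DG at an adjusted p under 0.05 (limma with Benjamini-Hochberg adjustment over the 12444 genes), namely Cxcr3, Cxcr5, Cxcr6 and S1pr5. Ccr9 was lower, and Ccr2 and Cx3cr1 did not pass. Among all tested genes, 22.3% were higher and 17.1% were lower at that threshold, 39.4% in all. By the thresholds of the study (P below 0.05 and over 0.25 of log2 fold change either way), the same 5 receptors passed, as did 38.2% of all tested genes (21.6% higher and 16.6% lower). A log2 fold change of at least 1 at an adjusted p under 0.05 was reached by 3 of the 7 receptors, Cxcr3, Cxcr5 and Cxcr6, and by 1.16% of all tested genes in that direction. The median log2 fold change of the 7 receptors was 0.73, against 0.05 over all tested genes. The samples of the groups did not overlap for 5 of the 7 receptors, and 52.1% of all tested genes had groups that did not overlap. The sum of the 7 receptors was between 47.8 and 56.2 FPKM in the MWA+PBS samples and between 100.3 and 109.4 FPKM in the MWA+2DG samples.

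Much of this sum was Cxcr3 and Cxcr6. Their combined share of the summed FPKM lay between 45.4% and 53.0% for MWA+PBS and between 70.2% and 70.6% for MWA+2DG. In MWA+PBS the order of mean levels was Cxcr3, Ccr2, Cxcr6, Ccr9, Cxcr5, Cx3cr1 and S1pr5. The samples of Ccr2 and Cxcr6 overlapped in that group, as did those of Cxcr6 and Ccr9 and those of Cx3cr1 and S1pr5. In MWA+2DG the order was Cxcr3, Cxcr6, Ccr2, Ccr9, Cxcr5, S1pr5 and Cx3cr1, and of neighbours in it only Ccr9 and Cxcr5 had samples that overlapped. Cxcr6 thus stood apart from Ccr2 in MWA+2DG, and S1pr5 from Cx3cr1. No test was made between genes.

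**Figure D1:**
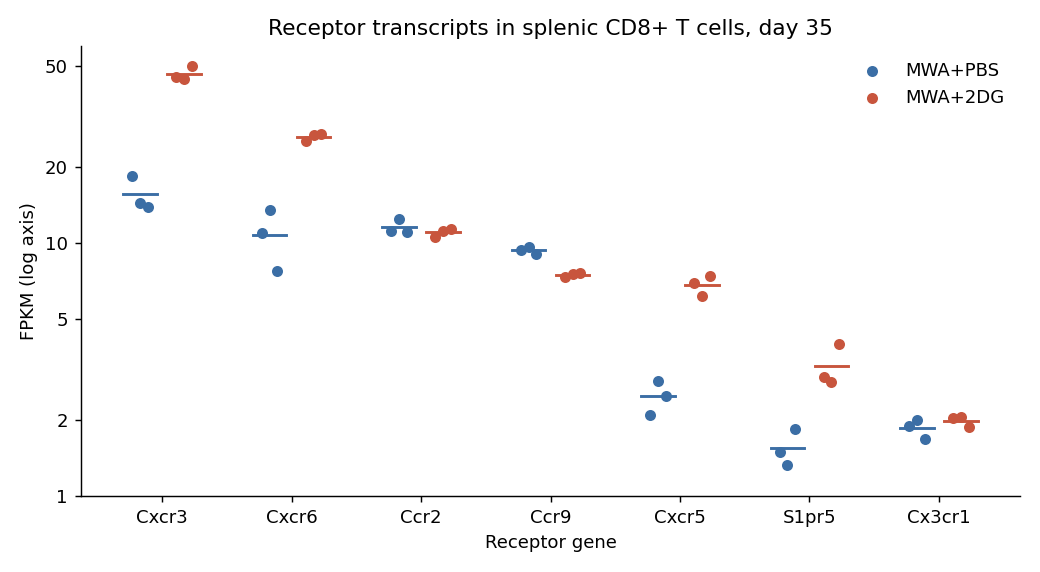
FPKM (log axis) of each receptor gene in the 3 MWA+PBS samples (blue) and the 3 MWA+2DG samples (red), with a line at each group mean. Cxcr3, Cxcr6, Cxcr5 and S1pr5 sit higher in all MWA+2DG samples, Ccr9 sits lower, and Ccr2 and Cx3cr1 overlap.

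Cxcr3 (ENSMUSG00000050232) encodes the receptor for the interferon-induced chemokines Cxcl9, Cxcl10 and Cxcl11, and is carried by effector and memory CD8+ T cells. Its level was 18.4, 14.4 and 13.9 FPKM in MWA+PBS replicates 1 to 3, and 45.2, 44.6 and 50.1 FPKM in MWA+2DG replicates 4 to 6. Every MWA+2DG sample was far above every MWA+PBS sample. The means were 15.6 ± 2.48 FPKM and 46.6 ± 3.02 FPKM (SD, n = 3 each), a ratio of 2.99. The log2 fold change was 1.53 ± 0.11 (SE), with a 95% interval of 1.28 to 1.78 and an adjusted p of 4.08e-05 in limma. Of all tested genes, 0.354% had a higher log2 fold change.

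Cxcr6 (ENSMUSG00000048521) encodes the receptor for Cxcl16, known for holding T cells in peripheral tissue such as liver and lung. It was at 10.9, 13.5 and 7.78 FPKM in MWA+PBS and at 25.2, 26.65 and 27.0 FPKM in MWA+2DG. The MWA+PBS samples were spread widely and the MWA+2DG samples lay close together, with no overlap. From 10.7 ± 2.88 to 26.3 ± 0.939 FPKM (SD, n = 3), the log2 fold change was 1.25 ± 0.16 (limma adjusted p = 0.000877, 95% interval 0.87 to 1.63). The ratio of Cxcr3 to Cxcr6 came to 151% ± 39.3 for MWA+PBS and 177% ± 9.19 for MWA+2DG, with overlapping samples (two-sided exact permutation p = 0.5, n = 3 each). The wide spread of that ratio in MWA+PBS leaves room for a difference that these samples could not show.

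Cxcr5 (ENSMUSG00000047880) encodes the receptor for Cxcl13, which draws B cells and follicular T cells into B cell follicles. Its values were 2.10, 2.85 and 2.49 FPKM in MWA+PBS against 6.98, 6.17 and 7.39 FPKM in MWA+2DG. The lowest MWA+2DG sample was above the highest MWA+PBS sample. Means of 2.48 ± 0.375 and 6.85 ± 0.621 FPKM (SD, n = 3) gave a ratio of 2.76 and a log2 fold change of 1.18 ± 0.10, with a limma adjusted p of 0.000120.

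B cells carry Cxcr5, and their markers moved with it. Of 9 tested B cell markers out of 10 listed, 8 were higher and 1 lower, and their summed level was 15.4 to 16.9 FPKM in MWA+PBS and 55.9 to 61.2 FPKM in MWA+2DG. The defining marker Ms4a1 was 0.117 ± 0.0551 and 4.15 ± 0.159 FPKM, and Cd79a was 1.22 ± 0.261 and 12.5 ± 1.48 FPKM (SD, n = 3). Neither was at 0 in any sample, and the part of these markers in the Cxcr5 result was not tested. The exons of Cxcr5 share 110 bases with the opposite strand of Bcl9l in GENCODE M21. Bcl9l was at 34.6 and 33.1 FPKM on average (log2 fold change -0.06, limma adjusted p = 0.688).

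Ccr2 (ENSMUSG00000049103) encodes the receptor for Ccl2 and related chemokines, which brings monocytes and effector T cells into inflamed tissue. It was at 11.2, 12.5 and 11.0 FPKM in MWA+PBS and at 10.6, 11.1 and 11.4 FPKM in MWA+2DG. The groups overlapped. The log2 fold change was -0.06 ± 0.07, with a 95% interval of -0.21 to 0.09 (limma adjusted p = 0.491).

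Monocytes carry Ccr2, and their listed markers moved in both directions. Of 11 tested monocyte markers out of 12, 4 were higher and 7 lower, and the summed level was 274.8 to 292.0 FPKM in MWA+PBS and 219.3 to 236.5 FPKM in MWA+2DG. The defining markers parted, Ly6c2 from 64.9 ± 2.69 to 86.5 ± 6.44 FPKM and Csf1r from 67.9 ± 5.85 to 10.6 ± 0.0945 FPKM (SD, n = 3). Neither was at 0 in any sample, and their part in the level of Ccr2 was not tested.

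Ccr9 (ENSMUSG00000029530) encodes the receptor for Ccl25 and directs T cells to the small intestine and progenitors to the thymus. Its level was 9.38, 9.66 and 9.06 FPKM in MWA+PBS and 7.37, 7.52 and 7.64 FPKM in MWA+2DG. The groups were close in level, but tight, and did not overlap. The means of 9.37 ± 0.300 and 7.51 ± 0.135 FPKM (SD, n = 3) had a ratio of 0.802, and the log2 fold change was -0.28 ± 0.06 (limma adjusted p = 0.00575).

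Plasmacytoid dendritic cells also carry Ccr9, which is itself 1 of the 9 markers listed for them. Of 7 tested markers, 1 was higher and 3 were lower, Ccr9 included, and the summed level was 55.7 to 66.2 FPKM in MWA+PBS and 53.7 to 56.2 FPKM in MWA+2DG. Also lower were Irf8, from 12.1 to 5.09 FPKM on average, and Cox6a2, from 4.34 to 0.580 FPKM. Pacsin1 was the higher 1, from 5.18 to 9.83 FPKM. Bst2, the highest in level on the list at 20.9 and 24.9 FPKM, did not pass. The defining marker Siglech was low in both groups, at 0.880 ± 0.139 and 0.523 ± 0.0603 FPKM (SD, n = 3), and was not at 0 in any sample. The part of these cells in the Ccr9 result was not tested. The annotated exons of Ccr9 share 1932 bases with AC165425.1 on the opposite strand, which was at 0.240 and 0.353 FPKM on average.

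Cx3cr1 (ENSMUSG00000052336) encodes the receptor for the membrane-bound chemokine Cx3cl1 and marks long-lived cytotoxic effector CD8+ T cells, and also many monocytes and macrophages. It was low, at 1.9, 2.00 and 1.69 FPKM in MWA+PBS and at 2.04, 2.05 and 1.87 FPKM in MWA+2DG. The groups overlapped, and the log2 fold change was 0.06 ± 0.09 with a 95% interval of -0.14 to 0.26 (limma adjusted p = 0.598). Macrophage markers, 12 of 12 lower, had a summed level between 813.9 and 878.5 FPKM in the MWA+PBS samples and between 116.9 and 126.3 FPKM in the MWA+2DG samples, with Adgre1, C1qa and Vcam1 above 0 in every sample. Their part in the level of Cx3cr1 was not tested.

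S1pr5 (ENSMUSG00000045087) encodes a sphingosine-1-phosphate receptor known for the exit of natural killer cells from bone marrow, and carried by circulating effector CD8+ T cells. Its values were 1.49, 1.33 and 1.85 FPKM in MWA+PBS and 2.95, 2.83 and 3.99 FPKM in MWA+2DG. Every MWA+2DG sample was above every MWA+PBS sample, with replicate 6 the highest. Means of 1.56 ± 0.266 and 3.26 ± 0.638 FPKM (SD, n = 3) gave a ratio of 2.09 and a log2 fold change of 0.73 ± 0.13, with a limma adjusted p of 0.00376. Of all tested genes, 3.25% had a higher log2 fold change.

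Natural killer cells carry S1pr5, Cxcr3 and Cxcr6. Of 11 listed natural killer cell markers, 5 were tested, of which 1 was higher and 3 were lower, and the higher one was Eomes, which effector and memory T cells also express. The summed level was 121.7 to 135.7 FPKM in MWA+PBS and 95.7 to 104.2 FPKM in MWA+2DG. Tyrobp, at 43.5 and 16.9 FPKM on average, and Fcer1g, at 29.8 and 8.19 FPKM, are also expressed by macrophages. In a sum added after the data were seen, the list without these 2 was at 52.9 to 60.6 FPKM in MWA+PBS and higher, at 73.8 to 79.5 FPKM, in MWA+2DG. Leaving out Eomes as well, the groups overlapped, at 30.4 to 37.6 FPKM and 29.2 to 31.7 FPKM. The defining marker Ncr1 fell from 6.54 ± 0.554 to 4.92 ± 0.138 FPKM (limma adjusted p = 0.00764, n = 3 each), and Klrb1c was at 0.970 ± 0.114 and 0.670 ± 0.0819 FPKM. Both were above 0 in every sample, and the part of these cells in the levels of the 3 receptors was not tested.

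FPKM is a share, and the T lineage genes took a larger share in MWA+2DG. Of 16 T lineage genes, 15 were higher and 0 lower, and their mean shift was 0.45 on the log2 FPKM scale. Scaled to these genes, the median log2 fold change of all tested genes moved from 0.05 to -0.33, and the share of called genes that were higher went from 56.5% to 7.25%. On that scale 4 receptors stayed higher and the other 3 were lower at an adjusted p under 0.05. Of all tested genes, 66.6% were called on that scale, 4.82% as higher and 61.7% as lower. Cxcr3 was then at a log2 fold change of 1.10, Cxcr6 at 0.83, Cxcr5 at 0.82 and S1pr5 at 0.42, while Ccr9 was at -0.68. Ccr2 moved to -0.47 (limma adjusted p = 0.000715, between 0.000715 and 0.898 over its alternatives). Cx3cr1 turned from 0.06 to -0.23 (limma adjusted p = 0.0460, between 0.0460 and 0.905 over its alternatives).

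**Figure D2:**
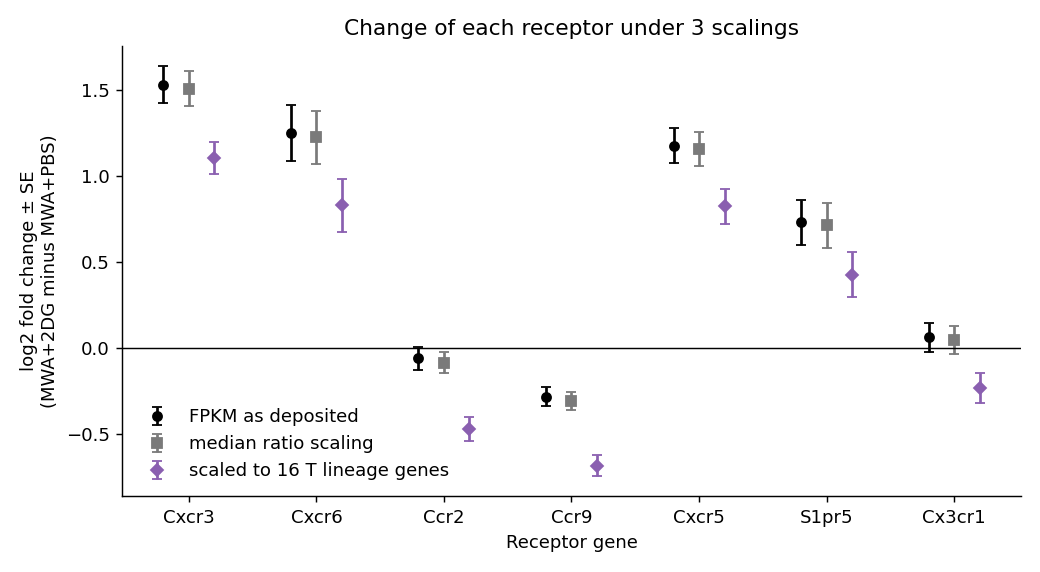
Log2 fold change (MWA+2DG minus MWA+PBS) of each receptor, with its standard error, for FPKM as deposited (black circles), median ratio scaling (grey squares) and scaling to 16 T lineage genes (purple diamonds). Cxcr3, Cxcr6, Cxcr5 and S1pr5 lie above 0 under each scaling and Ccr9 below 0, while Cx3cr1 lies at 0.06 as deposited and at -0.23 when scaled to the T lineage.

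Set against Cd8a in the same sample, a ratio added after the data were seen, the receptors stood as follows. Cxcr3 went from 6.74% ± 1.12 of the Cd8a level in MWA+PBS to 12.7% ± 0.492 in MWA+2DG (SD, n = 3), Cxcr6 from 4.62% ± 1.11 to 7.18% ± 0.237, and Cxcr5 from 1.07% ± 0.141 to 1.87% ± 0.130. Ccr9 went from 4.05% ± 0.0380 to 2.05% ± 0.0387 and Ccr2 from 4.99% ± 0.189 to 3.01% ± 0.0967. None of these 5 ratios overlapped between the groups, nor did that of Cx3cr1, at 0.804% and 0.543%. Cd8a itself rose from 231.5 to 366.4 FPKM on average, so dividing by it lowers every gene in MWA+2DG. As FPKM, Ccr2 and Cx3cr1 overlapped between the groups and did not pass. The share of all tested genes whose ratio to Cd8a did not overlap was not computed. The ratio of S1pr5 to Cd8a did overlap, at 0.675% ± 0.134 and 0.886% ± 0.149 (two-sided exact permutation p = 0.3, n = 3 each). With 3 samples against 3 that test cannot go below 0.1, which is its value for the other 6.

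The chemokines that these receptors bind were scarce in the isolates. Of 11 listed ligands, 2 passed the filter. Ccl2, a ligand of Ccr2, was at 0.340, 0.690 and 0.200 FPKM in MWA+PBS and at 2.02, 3.04 and 1.33 FPKM in MWA+2DG (log2 fold change 1.13 ± 0.22, limma adjusted p = 0.00554). Cxcl13, the ligand of Cxcr5, was at 1.76 ± 0.367 and 2.60 ± 0.727 FPKM (SD, n = 3), a log2 fold change of 0.37 that did not pass (limma adjusted p = 0.107). The Cxcr3 ligand Cxcl9 stayed below 1 FPKM in every sample, at 0.823 ± 0.0945 and 0.400 ± 0.0557 FPKM, and so did Cxcl10, Cxcl11, Cxcl16, Ccl25, Cx3cl1, Ccl7 and Ccl12. Ccl8 was listed at 0 in all samples but MWA+PBS replicate 1, where it was at 1.10 FPKM.

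Genes that make, export or break down the S1pr5 ligand were measured in the same libraries. Of 7 listed, 6 were tested, of which 0 were higher and 4 lower, with a median log2 fold change of -0.68. The lipid phosphatase gene Plpp3 fell by 1.13 on the log2 scale, the exporter Spns2 by 1.11 and the exporter Mfsd2b by 1.02. Sgpl1, the lyase that degrades sphingosine-1-phosphate, fell by 0.35 (limma adjusted p = 0.00430). Macrophage markers were lower in the same samples, as given above, and their part in these changes was not tested.

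Other chemokine receptors moved in both directions. Of 17 listed, 8 were tested, with 5 higher and 3 lower. With the T lineage scaling 3 were higher and 3 lower, on a scale where 4.82% of all tested genes were higher and 61.7% lower. Cxcr4, the receptor that retains cells in bone marrow, fell from 128.2 ± 6.35 to 60.9 ± 3.23 FPKM (log2 fold change -1.06 ± 0.06). Ccr3, best known in eosinophils, fell from 21.3 ± 0.667 to 3.76 ± 0.145 FPKM (SD, n = 3). Cxcr2, a neutrophil receptor, rose from 0.733 ± 0.300 to 5.29 ± 0.534 FPKM, in samples where the 10 neutrophil markers, Cxcr2 among them, had a summed level of 56.0 to 81.8 FPKM in MWA+PBS and 1539 to 1713 FPKM in MWA+2DG.

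The receptors of resting T cell traffic rose as well, and with the T lineage scaling their log2 fold changes were smaller, at 0.20 for Ccr7 and 0.36 for S1pr1. Ccr7, the lymph node homing receptor, went from 87.0 ± 5.18 to 136.3 ± 4.15 FPKM (SD, n = 3), a log2 fold change of 0.64 ± 0.06, with a limma adjusted p of 0.000177. The ratio of Cxcr3 to Ccr7 went from 17.9% ± 2.58 to 34.2% ± 2.74, with no overlap between the groups (two-sided exact permutation p = 0.1, n = 3 each). S1pr1, which lets T cells leave lymphoid organs, went from 74.7 ± 0.382 to 131.2 ± 1.68 FPKM, a log2 fold change of 0.80 ± 0.05. The ratio of S1pr5 to S1pr1 overlapped between the groups, at 2.08% ± 0.345 and 2.48% ± 0.473 (two-sided exact permutation p = 0.4, n = 3 each).

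The genes that carry the receptors' signal were divided. Of 26 tested, 6 were higher, 5 lower and 15 did not pass, and their median log2 fold change was 0.05, as over all tested genes. With the T lineage scaling 0 were higher and 22 lower, on a scale where 61.7% of all tested genes were lower. The largest were Grk6, a kinase that desensitizes such receptors, at 0.48, and Gng2, a G protein gamma subunit, also at 0.48, which were at 0.04 and 0.07 with the T lineage scaling. Coro1a, an actin regulator of T cell migration, was at 0.32, and at -0.12 with that scaling. Gnb1, a G protein beta subunit, was at -0.29 under FPKM as deposited.

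Among 17 transcription regulators of effector and memory CD8+ T cells, 7 were higher, 3 lower and 7 did not pass. With the T lineage scaling 3 were higher and 6 lower, beside 4.82% and 61.7% of all tested genes. Eomes, a T-box factor of memory cells, rose from 22.8 ± 0.337 to 45.6 ± 1.87 FPKM (log2 fold change 0.97 ± 0.05). Zfp683, a regulator of tissue-resident memory cells, rose from 0.977 ± 0.172 to 2.39 ± 0.512 FPKM (SD, n = 3). Tbx21 encodes T-bet, a T-box factor known to raise Cxcr3, and was at 10.7 ± 0.200 and 14.0 ± 0.484 FPKM. Its log2 fold change of 0.35 (limma adjusted p = 0.00185) became -0.06 with the T lineage scaling.

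Zeb2, a transcriptional repressor known to act with T-bet in terminal effector cells, fell while S1pr5 rose. It was at 3.64, 3.51 and 3.85 FPKM in MWA+PBS and at 1.5, 1.54 and 1.64 FPKM in MWA+2DG (log2 fold change -0.87 ± 0.08, limma adjusted p = 0.000122). The groups did not overlap, and macrophages, whose markers fell in the same samples, also express Zeb2. Their part in this change was not tested. Klf2, which sustains S1pr1 in resting T cells, was at 58.8 ± 9.66 and 69.4 ± 6.27 FPKM (SD, n = 3), a log2 fold change of 0.25 that did not pass (limma adjusted p = 0.155) and was -0.19 with the T lineage scaling.

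Of the 7 receptor genes, 6 lie on chromosome 9 and Cxcr3 lies on chromosome X. Ccr9, Cxcr6 and Ccr2 belong to a cluster of chemokine receptor genes whose order in RefSeq includes Ccr9, Fyco1, Cxcr6, Xcr1, Ccr1, Ccr1l1, Ccr3 and Ccr2. Genes of the cluster did not all move in the same direction. The neighbours Fyco1 and Cxcr6 both rose, and Ccr2 did not pass. Along that order the log2 fold change was -0.28 for Ccr9, 0.45 for Fyco1 and 1.25 for Cxcr6, then 0.56 for Ccr1, -2.23 for Ccr3 and -0.06 for Ccr2. Xcr1 and Ccr1l1 were under the filter. Fyco1, a gene of vesicle transport, went from 10.9 ± 0.416 to 15.2 ± 0.383 FPKM (SD, n = 3), and Cxcr6 shared no exon bases with any other annotated gene.

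**Figure D3:**
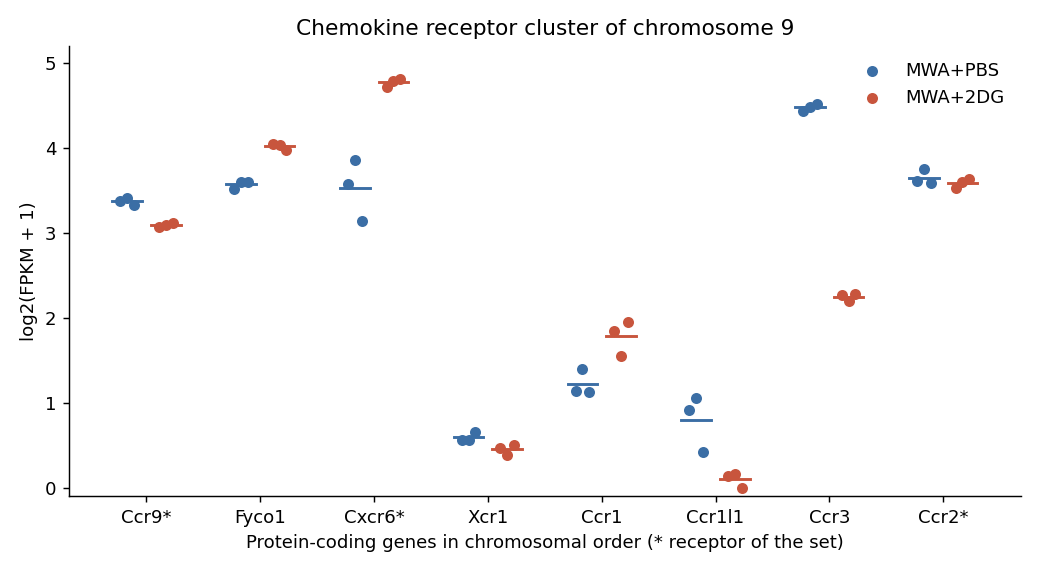
Log2(FPKM + 1) of 8 genes of the chromosome 9 cluster in their RefSeq order, in the 3 MWA+PBS samples (blue) and the 3 MWA+2DG samples (red), with a line at each group mean and receptors of the set starred. Cxcr6 is higher in MWA+2DG and Ccr3 is lower, while Ccr2, next to Ccr3, overlaps between the groups.

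The 2 tested genes most like each receptor over the 6 samples were found by Pearson's r of log2(FPKM + 1), as a description. The r was taken over both groups together, so for receptors whose groups lie apart it largely follows the difference between the groups. For Cxcr3 they were Tspyl4 and Slc37a3, for Cxcr6 Gm8369 and 5730455P16Rik, for Cxcr5 Cfl2 and Adcy7, and for S1pr5 Gm15672 and Mylip. For Ccr9 they were Slpi and Trat1, for Ccr2 Usp1 and Arl5b, and for Cx3cr1 Dcun1d5 and 2310039H08Rik. The lowest r was 0.98868, for Ccr2 with Arl5b. The number of genes with r of at least 0.99 was 60 for Cxcr3, 103 for Cxcr5, 49 for Cxcr6, 118 for Ccr9 and 7 for S1pr5. It was 1 each for Ccr2 and Cx3cr1, whose groups overlapped. These numbers were not set against those of other tested genes.

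Markers of further cells that a spleen isolate may hold were summed in the same way. Neutrophil markers, 10 of 10 higher, are given beside Cxcr2, and the defining S100a8 and Ly6g were above 0 in every sample. Conventional dendritic cell markers, 3 of 3 tested lower, had a summed level between 49.8 and 54.0 FPKM in the MWA+PBS samples and between 12.3 and 12.9 FPKM in the MWA+2DG samples, with the defining Zbtb46 and Clec9a under 1 FPKM but not at 0. CD4 T cell markers, of which 1 was higher and 2 lower of 7 tested, had a summed level of 15.5 to 16.5 FPKM against 14.5 to 16.1 FPKM. The defining Cd4 fell from 2.75 ± 0.160 to 1.66 ± 0.110 FPKM (SD, n = 3, limma adjusted p = 0.00252). The other defining marker, Foxp3, was under 1 FPKM but not at 0 in every sample. The part of these cells in the receptors' levels was not tested.

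**Figure D4:**
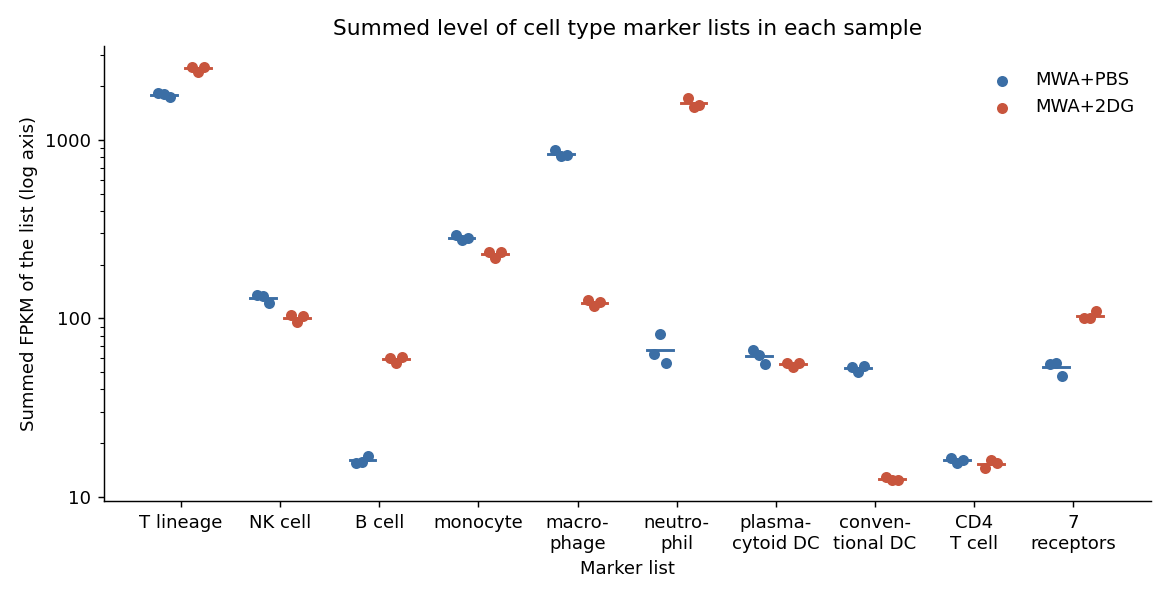
Summed FPKM (log axis) of each cell type's marker list, and of the 7 receptors, in the 3 MWA+PBS samples (blue) and the 3 MWA+2DG samples (red), with a line at each group mean. T lineage, B cell and neutrophil sums are higher in MWA+2DG. Macrophage, monocyte, natural killer cell and conventional dendritic cell sums are lower, and plasmacytoid dendritic cell and CD4 T cell sums overlap. The 7 receptors rise from between 47.8 and 56.2 to between 100.3 and 109.4.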

How the data were processed

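Bulk RNA-seq of splenic CD8+ T cells from 3 MWA+PBS and 3 MWA+2DG samples was used, grouped by their labels. The authors checked reads with fastp, aligned them with HISAT2, and assembled and quantified transcripts with StringTie and ballgown. The submitters' processing notes name cutadapt 1.9, HISAT2 2.0.4, UMI-tools, StringTie 1.3.4d and build mm9. The libraries were strand-marked and carried molecular identifiers, but how either entered the FPKM was not given in the sources used here. Deposited FPKM values are scaled by transcript length and by each library's total, so one gene's larger share lowers the others. A scan for steps of whole reads found none (highest resonance 0.0798 to 0.115, against 0.0762 to 0.0970 in jittered values), so depth is unknown and no count test was possible.

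Symbols came from GENCODE M21 and promoters from RefSeq (GRCm38.p6), and no mm9 coordinates are printed. log2(FPKM + 1) of the 12444 genes with a mean FPKM of at least 1 was fitted with limma 3.58.1 in R 4.3.3 (lmFit, eBayes with trend) as a two-sided test of MWA+2DG minus MWA+PBS, with no covariate and Benjamini-Hochberg adjustment. Fold changes on this scale understate those of low genes. Single ratios were compared by a two-sided exact permutation test over samples. The fit was tested on simulated data with known changes. Shared exons came from GENCODE M21.

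The members, gene lists, marker lists and tests were chosen with earlier results of these data known. Named genes were the 7 receptors, their ligands and known partners, up to 4 genes per pathway list with the largest change at an adjusted p under 0.05, the defining markers, the 2 genes most like each receptor, and genes next to or overlapping a receptor. Some genes that this rule names are not reported here. Alternatives were a pseudocount of 0.1, no filter, a minimum mean FPKM of 5, median ratio scaling, quantile normalization, rescaling after removal of ribosomal protein, haemoglobin, immunoglobulin and mitochondrial genes, T lineage scaling, eBayes without trend, arrayWeights, leaving out each sample, and a log2 fold change beyond 1.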

Additional observations from a re-analysis of the deposited data

How the results depend on the processing

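The directions and calls of Cxcr3, Cxcr5, Cxcr6, Ccr9 and S1pr5 were the same under all 15 alternatives, or under the 14 in which Cxcr5 and S1pr5 were tested. A minimum mean FPKM of 5 left Cxcr5, Cx3cr1 and S1pr5 untested. Without 1 sample at a time, the log2 fold change was between 1.46 and 1.65 for Cxcr3, 1.10 and 1.25 for Cxcr5, 1.05 and 1.42 for Cxcr6, and 0.61 and 0.81 for S1pr5. It was between -0.31 and -0.26 for Ccr9, -0.09 and -0.01 for Ccr2, and 0.02 and 0.10 for Cx3cr1. With the T lineage scaling Ccr2 passed at -0.47 and Cx3cr1 reversed to -0.23, since that scaling lowers every gene in MWA+2DG. At an adjusted p under 0.05, 4907 of 12444 genes were called, with 2951 of 7313 under the minimum mean FPKM of 5 and 8282 with the T lineage scaling. By the rule on P and a log2 fold change beyond 0.25, 4752 genes were called (38.2%), with 2562 under that minimum, 7809 with the T lineage scaling, and 627 with a log2 fold change beyond 1. No paired analysis was possible because the groups share no sample number. Depth, which would set the precision of low receptors such as Cx3cr1 and S1pr5, is unknown.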
